A study of Mus musculus with 2 samples.

Results

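Cytosolic ribosomal protein genes were taken from the deposited table by their symbols (Rpl and Rps followed by a number and at most the letter a, x or y, the stalk genes Rplp0, Rplp1 and Rplp2, Rpsa, and the related symbols that end in l, with or without a number). Pseudogene symbols with -ps and the Rps6k kinases were left out. This gave 85 genes of the 33640 in the table, of which 52 belong to the large and 33 to the small subunit by symbol. The symbol rule used no measured value, but the set was chosen with earlier results of these data known. RNA came from the mitral valves of mice at 5 months of age, either wild type (WT) or Fbn1C1039G/+, that is, with 1 copy of a missense allele in the gene of the microfibril protein fibrillin-1. Tissue of 8 hearts, of males and females together, was pooled for each genotype, so each genotype is 1 library and no test, error or p-value can be given. Values were TPM, which scales transcript abundance for transcript length and library total, and a difference is the log2(TPM + 1) of the mutant pool less the wild-type one. Read totals cannot be recovered from TPM, and the depth is therefore unknown. In a pool of whole tissue, fewer cells of a type and less RNA per cell cannot be told apart.

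The ribosome translates mRNA into protein, and its small subunit decodes the message while its large subunit joins the amino acids. Each ribosomal protein is needed in about equal number, and the mRNAs of these genes carry a run of pyrimidines at their very start, the terminal oligopyrimidine (TOP) motif, through which the kinase mTOR and the binding protein LARP1 set their translation together. Ribosomal protein mRNAs are short and abundant in nearly every cell, and many have been copied back into the genome as intronless pseudogenes.

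The start regions of some members show that shared feature. RefSeq promoter sequences on GRCm38.p6 were matched to 62 of the 85 members, with 74 entries. The following stretches run 5′ to 3′ from 15 bases before the annotated start through the first 25 bases from it, with the longest run of C and T in capitals. The first 4 are ordinary members, and the last, Rpl3l, is a paralog with another expression pattern. They do not stand for all ordinary members or all paralogs. In the same window the longest run was only 3 bases for the ordinary members Rpl10 and Rpl41. It was 10 for the paralog Rpl22l1 and 9 for the paralog Rps27l.
Rpl35 (chr2:39005107-39005146, minus strand): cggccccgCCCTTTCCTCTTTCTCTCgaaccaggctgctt
Rpl15 (chr14:18270962-18271001, minus strand): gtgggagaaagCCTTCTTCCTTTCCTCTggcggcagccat
Rps6 (chr4:86857343-86857382, minus strand): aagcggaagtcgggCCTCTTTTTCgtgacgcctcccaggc
Rps9 (chr7:3704026-3704065, plus strand): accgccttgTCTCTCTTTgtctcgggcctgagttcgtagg
Rpl3l (chr17:24727811-24727850, plus strand): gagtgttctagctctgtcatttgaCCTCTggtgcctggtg
A run of at least 8 bases of C and T within 25 bases on either side of the start was present in 34 of the 74 member entries (45.9%) and in 19.7% of all 32851 promoter entries. In the window from 250 bases before to 50 after the start, searched on both strands, the ETS core CCGGAAG was present in 35.1% of member entries and 8.86% of all entries, the YY1 core AAGATGGC in 10.8% and 2.75%, and the GC box GGGCGG in 59.5% and 35.7%. CACGTG, the E box that MYC binds, was present in 10.8% and 7.15%, and TATAAA in 9.46% and 13.6%. These are letter matches at annotated starts. The 32 measured members with such a pyrimidine run had a median difference of −0.35 and the 28 without it −0.30, with ranges that overlapped.

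Nearly all members had less TPM in the mutant pool, by a similar proportion. Of all 85 members, 80 were lower, 4 were higher and Rpl10l was listed at 0 in both pools. A mean of at least 1 TPM over both libraries was reached by 82 members, and 79 of these were lower, where 35.1% of the 17004 genes at that level were lower. The other 3 were higher, as were 64.9% of all genes. Rpl6l, Rpl10l and Rpl39l did not reach it. A difference of −0.25 or below, a limit chosen after the values were seen, was found for 59 of the 82 members and for 14.7% of all genes, or 13.5% of the other genes with a mean of at least 100 TPM. The size was small. Rpl3l alone was at least 2-fold lower, where 1.72% of all genes were, and no member was at least 2-fold higher, where 4.81% were. Together the 85 genes took 6.87% of the wild-type and 5.43% of the mutant library, and the log2 ratio of their sums was −0.34.

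The members lay close together. The 76 members with a mean of at least 100 TPM had an interquartile range of −0.40 to −0.25 around a median of −0.35, and 74 of them were lower. The 1314 other genes at that level had an interquartile range of −0.12 to 0.31 around a median of 0.08, and 40.9% were lower. They are not matched for abundance, since the median mean TPM was 616 for the members and 162 for the other protein-coding genes. The 145 other genes with a mean of at least 500 TPM had an interquartile range of −0.26 to 0.23 around a median of −0.05. Of these, 79 were lower and 37 were at −0.25 or below. The order of the genes hardly differed between the libraries. Across the 82 members the Spearman correlation of the levels in both pools was 0.993, a description of genes measured in the same libraries. The extremes among members with a mean of at least 100 TPM were Rpl30, whose mutant value was 0.657 times the wild-type value, and Rps12l1, at 1.65 times.

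**Figure D1:**
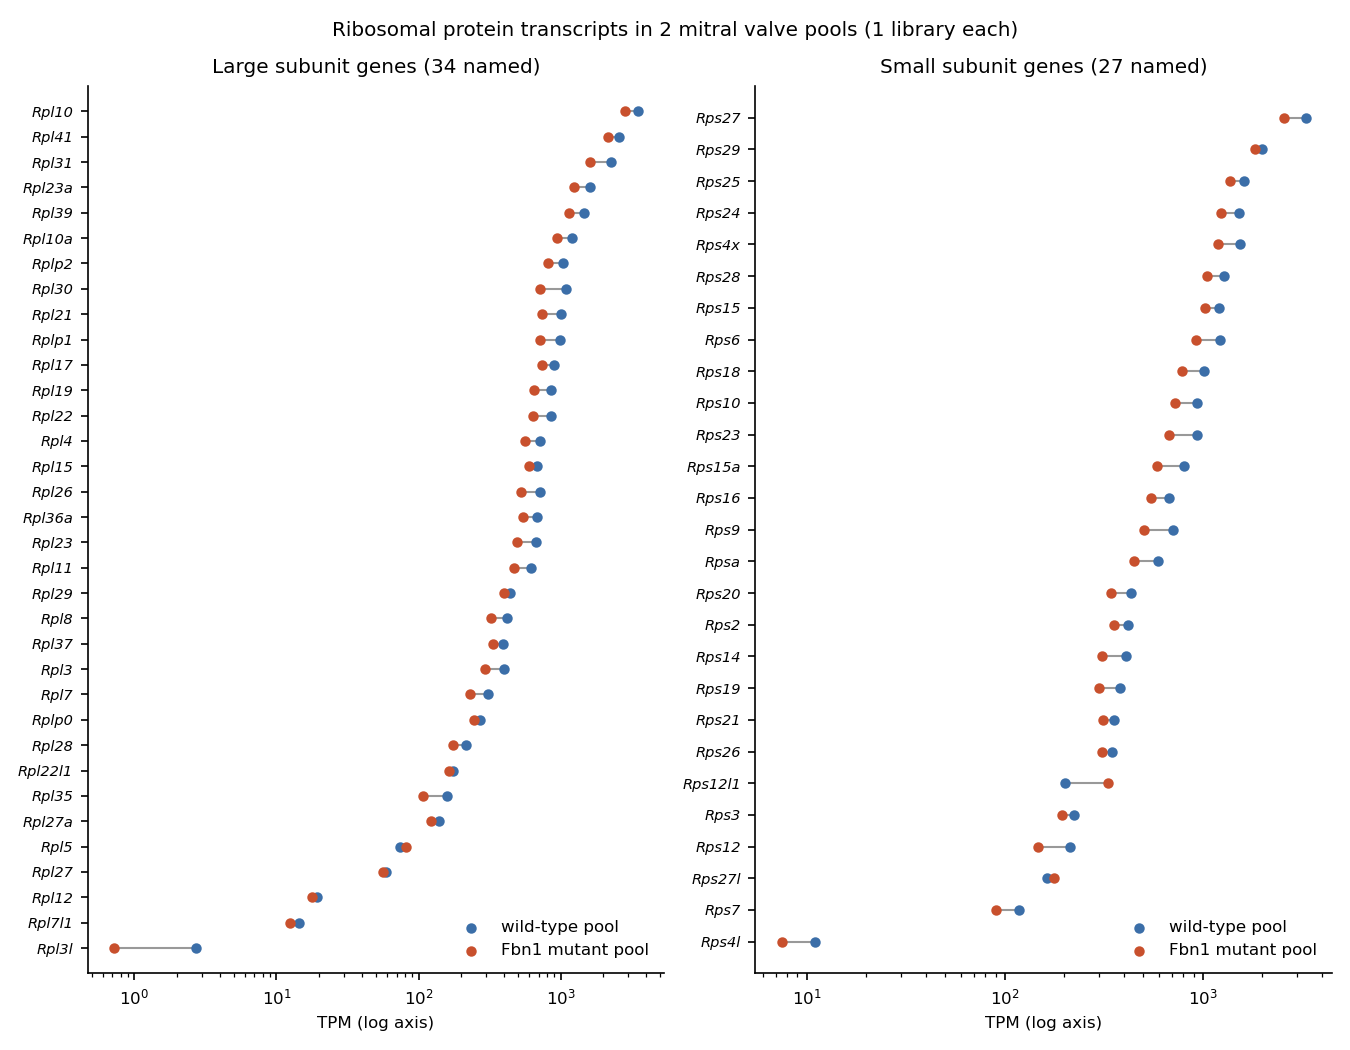
TPM of the 61 ribosomal protein genes named in the text that had a mean of at least 1 TPM, on a log axis, for large (left) and small (right) subunit genes ordered by mean, with the wild-type pool in blue and the mutant pool in orange, 1 library each. The orange point lies left of the blue one for 58 genes, and Rpl5, Rps27l and Rps12l1 are the 3 exceptions.

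The subunits were alike in the size of the difference. The 49 measured large subunit genes had a median difference of −0.35 (interquartile range −0.41 to −0.25), with 48 lower. The 33 small subunit genes had a median of −0.34 (interquartile range −0.39 to −0.24), with 31 lower. The median of all 17004 genes was 0.14. Summed TPM of the large subunit was 41095 and 31995 in the wild-type and mutant pools, a log2 ratio of −0.36. For the small subunit it was 27642 and 22300.3, a log2 ratio of −0.31.

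**Figure D2:**
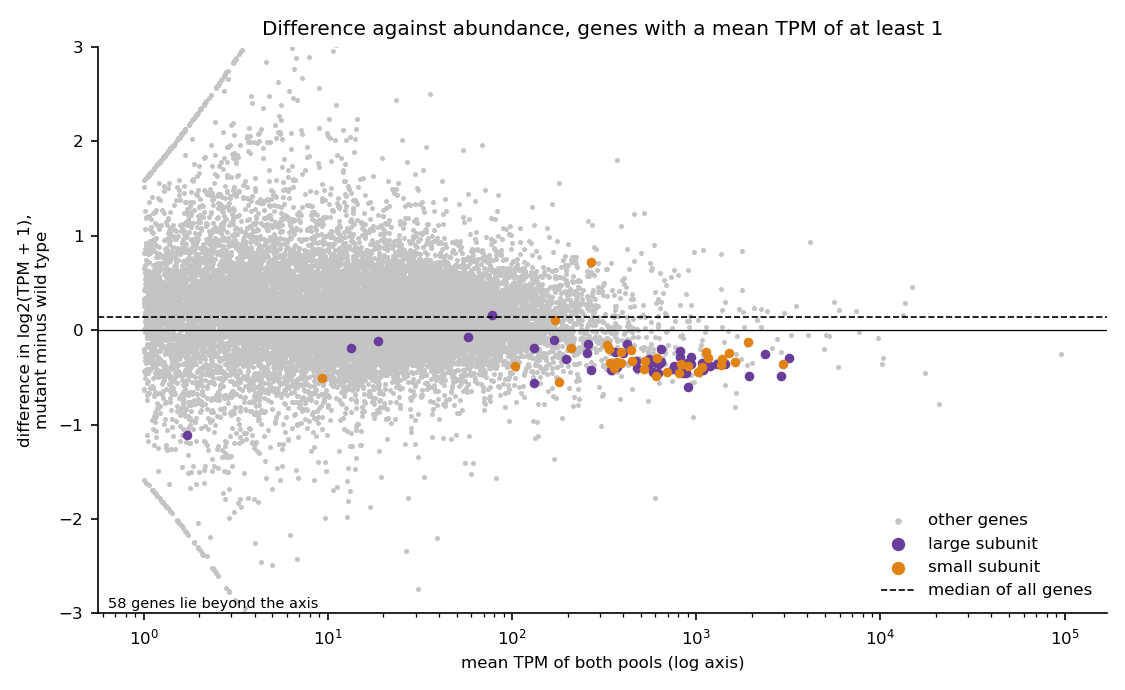
Mutant less wild-type log2(TPM + 1) against mean TPM on a log axis for all genes with a mean of at least 1 TPM, with large subunit genes in purple and small subunit genes in orange. The members form a narrow band near −0.35 below the dashed median of all genes at 0.14, and 58 other genes lie beyond the axis limit of 3 in size.

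Large subunit genes are described first, by the place of their protein in the ribosome. In each pair of values the wild-type pool comes first. Gene positions are those of GENCODE M21 on GRCm38 (mm10). Around the peptidyl transferase centre, where peptide bonds form, all 5 genes of the list were lower. Rpl10, whose protein is added late in assembly and lies near the transfer RNAs, was the most abundant large subunit gene in both pools, at 3506 and 2856 TPM (chromosome X, 74270812 to 74273135), a difference of −0.30. Rpl3, a core protein of that centre, was at 397 and 296 TPM, a difference of −0.42. Rpl8, also a core protein there, was at 423 and 322 TPM, and Rpl10a, a protein of the flexible stalk on the transfer RNA exit side, was at 1204 and 950 TPM. Rpl4, which also lines the exit tunnel, was at 717 and 566 TPM. The differences of these 5 genes ran only from −0.42 to −0.30.

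The exit tunnel, through which the new protein leaves the ribosome, was represented by 9 genes, and all were lower with a median of −0.38. Rpl31, at the rim of the tunnel, was at 2266 and 1613 TPM, a difference of −0.49 (−0.17 with its copies, described below), and Rpl35, a rim protein that contacts targeting factors, was at 158 and 107 TPM, a difference of −0.56 (−0.37 with its copies). Rpl23a, the docking site of the signal recognition particle, was at 1605 and 1250.5 TPM, and Rpl39, a small protein in the tunnel wall, was at 1462 and 1143 TPM. Rpl26 was at 716 and 523 TPM, Rpl19 at 853 and 654 TPM, Rpl22 at 851 and 639 TPM and Rpl17 at 897 and 738 TPM. The summed level of the list, with copies left out, was 9525 and 7233 TPM, a log2 ratio of −0.40. That ratio would be smaller in size for Rpl31 and Rpl35 with their copies, which held 48.0% and 49.0% of their summed wild-type TPM.

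The stalk of the large subunit, which recruits elongation factors, had smaller differences at its base. The acidic proteins at its tip, Rplp1 (985 and 719 TPM) and Rplp2 (1048 and 818 TPM), differed by −0.45 and −0.36. Rplp0, which anchors them, was at 273 and 246 TPM, a difference of −0.15. Rpl12, which lies at the stalk base, was listed at only 19.4 and 17.9 TPM, a difference of −0.11, and its copies are given below. All 4 were lower.

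Rpl5 and Rpl11 bind the small ribosomal RNA of the large subunit as a complex that, when free, also inhibits the p53 regulator MDM2. Rpl11 was at 618 and 473 TPM, a difference of −0.39. Rpl5 was at 73.7 and 82.2 TPM (chromosome 5, 107900502 to 107909005), a difference of 0.16, and was the single large subunit gene with a mean of at least 1 TPM that was higher in the mutant. With its copies added, as given below, the sign was reversed.

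Of the remaining large subunit genes, Rpl30 had the lowest difference among those with a mean of at least 10 TPM, at 1095 and 719 TPM (chromosome 15, 34440505 to 34443640), a difference of −0.61, or −0.40 with its copies. Rpl41, which encodes a very short basic peptide, was at 2565 and 2147 TPM, a difference of −0.26. Differences near 0 were found for Rpl27 (59.1 and 56.2 TPM, −0.07) and Rpl29 (441 and 400.0 TPM, −0.14). The large subunit genes with a mean of at least 10 TPM that were not given values so far had differences between −0.45 and −0.10.

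In the small subunit, the genes of the mRNA entry channel were all lower. Rps9 was at 710.0 and 505 TPM, a difference of −0.49, Rps2 at 420 and 357 TPM, a difference of −0.23, and Rps3, which also acts in DNA repair, at 223 and 196 TPM, a difference of −0.19. The 5 genes of the mRNA exit side were lower as well, with a median of −0.40. Rpsa, whose protein is also known as a laminin receptor, was at 596 and 450 TPM, a difference of −0.41. Rps14 was at 409 and 310 TPM and Rps28 at 1280.1 and 1047 TPM. Rps26, which contacts mRNA upstream of the start codon, was at 347 and 310.0 TPM, a difference of −0.16.

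All 9 genes of the head and beak were lower, with a median of −0.35. Rps12, a beak protein, had the lowest difference of the small subunit when genes are taken alone, −0.55 (−0.21 with its copies added, and Rps7 is then lowest), at 214 and 147 TPM (chromosome 10, 23785183 to 23787275). Rps29, a small zinc-binding protein and one of the most abundant members, was at 1993 and 1829 TPM (chromosome 12, 69157722 to 69159186), a difference of −0.12, which became 0.02 under quantile normalization. Rps18 was at 1020 and 784 TPM, Rps25, which viral internal entry sites depend on, at 1623 and 1371 TPM, and Rps10 at 934 and 727 TPM. Rps15 was at 1216 and 1032 TPM, Rps16 at 676 and 549 TPM, Rps20 at 437 and 343 TPM and Rps19, the gene most often mutated in Diamond-Blackfan anaemia, at 383 and 301 TPM.

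Rps6, the substrate of ribosomal S6 kinases below mTOR, was at 1222 and 931 TPM, a difference of −0.39. Rps27, a zinc finger protein, was the most abundant small subunit gene in both pools at 3317 and 2589 TPM (chromosome 3, 90212522 to 90213651), a difference of −0.36. Rps24 was at 1519 and 1232 TPM and the X-linked Rps4x at 1543 and 1196 TPM. Rps23, a protein of the decoding centre, was at 934 and 679.9 TPM, a difference of −0.46 (−0.31 with its copies added). Rps15a was at 804 and 591 TPM, a difference of −0.44. Rps21 was at 359 and 313 TPM, a difference of −0.20. The 4 members on the X chromosome (Rpl10, Rpl36a, Rpl39 and Rps4x) had a median of −0.34, as did the 78 measured autosomal ones. Diamond-Blackfan anaemia is a failure of red cell formation caused by loss of a ribosomal protein. The 19 genes linked to it were lower in 18 cases with a median of −0.35, and Rpl5 was the exception. This is about the share of all measured members, of which 79 of 82 were lower with a median of −0.34.

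The 9 paralog symbols were mixed, with 5 lower, 3 higher and 1 listed at 0 in both pools. Rps27l, a close relative of Rps27 that p53 induces, was at 164 and 177 TPM (chromosome 9, 66946086 to 66949516), a difference of 0.10 where Rps27 had −0.36, and it became −0.01 after centring on the median of genes with at least 10 TPM. Rpl22l1, the relative of Rpl22, was at 175 and 163 TPM, a difference of −0.10 (0.01 with its copies added) where Rpl22 had −0.41. Rpl7l1, whose protein acts in ribosome assembly, was at 14.4 and 12.5 TPM, a difference of −0.19 where Rpl7 had −0.42. Each of these 3 lay above the gene it resembles, as did Rps12l1. Rpl3l (−1.12) lay below Rpl3 (−0.42), and Rps4l (−0.50) below Rps4x (−0.37). The median of all genes with a mean of at least 1 TPM was 0.14. With 1 library per genotype none of these contrasts could be tested.

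Rpl3l replaces Rpl3 in heart and skeletal muscle. Rpl3l was at 2.72 and 0.718 TPM (chromosome 17, 24727820 to 24736143), a difference of −1.12. At such a level the value may rest on few reads. All 8 cardiac muscle markers were lower in the same mutant library, with a summed level of 2752 and 1900.2 TPM, as were 3 of 4 skeletal muscle markers (46.7 and 27.1 TPM), and their part in the Rpl3l value was not tested. Rpl10l and Rpl39l, paralogs known from the testis, were listed at 0 in both pools and at 0 and 0.662 TPM.

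The other symbols are annotated as pseudogenes in GENCODE M21. Rps12l1 was at 201 and 333 TPM (chromosome 7, 56014016 to 56014414), a difference of 0.72 and the highest of all members with a mean of at least 1 TPM. Rps4l was at 11.0 and 7.49 TPM, and Rpl6l at 0.205 TPM and listed at 0.

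Many members share their coding sequence with such copies, so that reads can be divided between a gene and its copies by an estimate. Transcripts of GENCODE M21 pseudogenes and predicted genes were aligned to the longest annotated coding sequence of each member. A transcript that matched at least 90% of bases over at least 80% of that coding sequence was counted as a copy. This gave copies for 72 members, and 61 members had a copy with a mean of at least 1 TPM. In 9 members the copies held over 50% of the summed wild-type TPM, namely Rpl12, Rpl5, Rpl27, Rps12, Rpl27a, Rpl28, Rps23, Rps7 and Rpl30.

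The following stretches show how little separates gene and copy. They are the coding bases of GENCODE M21 transcripts (GRCm38), numbered from 1 at the A of the start codon of the member, and capitals mark a mismatch.
Rpl30, bases 76 to 116: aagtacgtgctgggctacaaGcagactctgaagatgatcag
Gm12191, same bases: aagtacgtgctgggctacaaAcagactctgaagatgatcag
Rpl35, bases 97 to 137: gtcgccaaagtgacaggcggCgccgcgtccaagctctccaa
Gm2000, same bases: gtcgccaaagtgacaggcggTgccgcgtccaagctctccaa
Rpl5 and Gm15500, bases 1 to 41: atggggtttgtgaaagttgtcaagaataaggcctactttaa
Rps12, Rps12l1 and Rps12-ps3, bases 61 to 101: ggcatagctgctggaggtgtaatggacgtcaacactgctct
G96A was the single difference between Rpl30 and Gm12191 over 348 aligned bases, and C117T that between Rpl35 and Gm2000 over 372. Gm15500 had no mismatch to Rpl5 over 894 bases. Rps12l1 and Rps12-ps3 had none to Rps12 over 387 bases.

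With copies added, the difference of several members that had stood out lay nearer to the median of their subunit, and that of others lay farther from it. Gm15500 was at 1030.2 and 775 TPM, and Rpl5 with its 5 copies was at 1105 and 858 TPM, so that its difference turned from 0.16 to −0.36. Rpl12 with its copies, chiefly Gm10275 at 815 and 692 TPM, was at 848 and 717 TPM, a difference of −0.24 in place of −0.11. Rps12-ps3 was at 479 and 289 TPM, and Rps12 with all its copies, Rps12l1 included, was at 923 and 800 TPM, a difference of −0.21 in place of −0.55 for Rps12 and 0.72 for Rps12l1. Rpl30 with its copies, chiefly Gm12191 (1189 and 990.4 TPM), had a difference of −0.40 in place of −0.61, and Rpl35 one of −0.37 in place of −0.56.

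Farther from the median lay Rpl29, with −0.04 in place of −0.14, and Rpl37, with −0.07 in place of −0.23. Rpl31-ps8 was at 2057 and 2217 TPM, and Rpl31 with its copies had a difference of −0.17 in place of −0.49. Rps7 with its copies, chiefly Gm6472 (189 and 110 TPM), had −0.57 in place of −0.38. The Rps20 copy Gm4332 was listed at 0 for wild type against 62.9 TPM for the mutant, and Rps20 with its copies had −0.11 in place of −0.35. Rpl22l1 with its copies was at 183 TPM in both pools. Of the 72 members with copies, 70 were lower after the copies were added, Rpl22l1 was higher by 0.01 and Rpl10l was unchanged at 0. The medians with copies were −0.33 for the large and −0.32 for the small subunit.

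**Figure D3:**
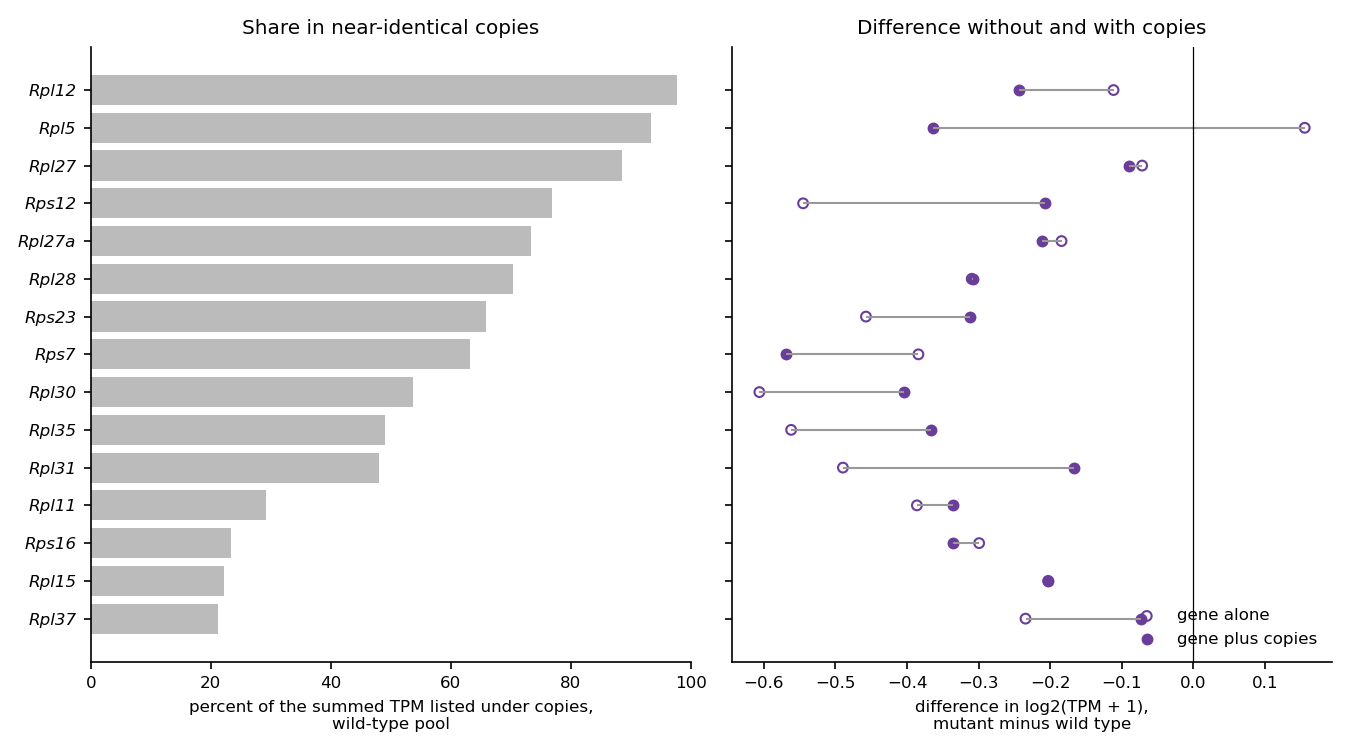
Left, the percent of the summed wild-type TPM of a gene and its copies that is listed under the copies, for 15 members named in the text where it is above 20%. Right, mutant less wild-type log2(TPM + 1) of the gene alone (open) and with its copies (filled). The filled points all lie below 0, Rpl5 among them.

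Ribosomal protein genes that the symbol rule missed were measured in the same libraries and are no independent support. Of the list, 6 genes were measured and all were lower, with a median of −0.33, where 35.1% of all genes were lower. Fau, which encodes a small subunit protein fused to a ubiquitin-like peptide, was at 199 and 129 TPM, a difference of −0.62. Rps3a1 was at 756 and 591 TPM, and Rpl36al at 568 and 458 TPM. Rack1, a signalling scaffold on the small subunit, was at 353 and 328 TPM, a difference of −0.10. Rps27rt, a copy-like relative of Rps27, was at 36.8 and 35.9 TPM, a difference of −0.04.

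Other mRNAs known to carry the TOP motif were lower too, though less so. Of the 20 measured genes of this list that encode no ribosomal protein, 16 were lower, with a median of −0.25. The elongation factor gene Eef1a1 was at 2136 and 1650 TPM, a difference of −0.37, and Tpt1, the translationally controlled tumour protein, at 1931 and 1559 TPM, a difference of −0.31. Eif3h, a subunit of an initiation factor, was at 151 and 107 TPM, a difference of −0.49. The 4 that were not lower were Eif4a2, Hnrnpa1, Impdh2 and Pabpc1, and the last, the poly(A) binding protein, was at 876 and 940 TPM.

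The rest of the translation machinery gave other values, to be read beside the median of 0.14 and the 35.1% lower over all genes. Elongation and release factors, which share Eef1a1 and others with the TOP list, had a median of −0.16 with 9 of 12 lower. Eef1d was at 169 and 127 TPM and Eef1b2 at 592 and 499 TPM, whereas Eef1e1 was at 9.57 and 13.3 TPM. Initiation factors had a median of −0.01 with 19 of 38 lower, and Eif2b3 was at 22.2 and 32.0 TPM. Ribosome biogenesis factors, which build the subunits in the nucleolus, had a median of −0.03 with 33 of 60 lower. Npm1 was at 665 and 587 TPM and Ncl at 145 and 143 TPM. The RNA polymerase I gene Polr1a was at 16.2 and 26.0 TPM and the processing factor gene Utp20 at 23.1 and 39.6 TPM, both higher. No gene of these 3 lists was 2-fold different.

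Genes known to control ribosomal protein mRNAs were lower in 6 of 19 cases, with a median of 0.14, the value of all genes. Rps6kb1, which encodes an S6 kinase, was at 37.8 and 58.5 TPM, a difference of 0.62, and Larp1b, a relative of Larp1, at 25.4 and 36.6 TPM. The MYC partner gene Max was at 141 and 175 TPM and the ETS factor gene Gabpa at 78.0 and 71.6 TPM.

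The mitochondrial ribosome, which is built from other genes, lay between the cytosolic members and all genes. Its 78 genes had a median of −0.01 with 41 lower, and their summed level was 2911 and 2837 TPM. All genes with a mean of at least 1 TPM had a median of 0.14 with 35.1% lower. Mrps21 was at 165 and 164 TPM and Mrpl33 at 137 and 156 TPM, while Mrpl23 was at 16.9 and 4.53 TPM and Mrps16 at 49.6 and 28.3 TPM. Oxidative phosphorylation subunits, taken by symbol, had a median of −0.15 with 63 of 84 lower, and Atp5b was at 1708 and 1640 TPM, while Cox6a2, the form of heart and skeletal muscle, was at 117 and 66.5 TPM. Proteasome subunits had a median of 0.06 with 16 of 39 lower, and Psma3 was at 260 and 289 TPM, while Psmb3 was at 100.4 and 70.3 TPM. The medians of these lists were not tested against each other.

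**Figure D4:**
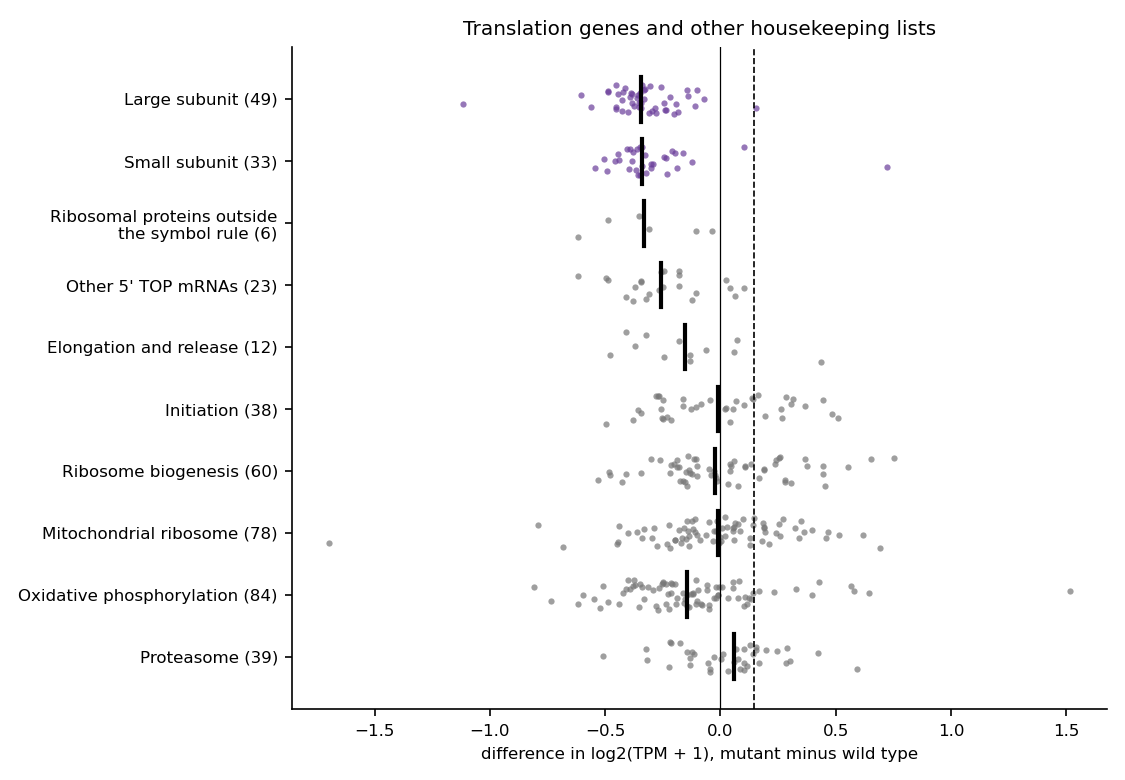
Mutant less wild-type log2(TPM + 1) of the measured genes of each list (points, spread vertically for display), with the list's median as a black bar and the median of all genes as a dashed line. Both subunits lie near −0.35, the mitochondrial ribosome, initiation and biogenesis lists near 0, and the other TOP mRNAs between them at −0.26, a list that here counts in Fau and other ribosomal protein genes.

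Ribosomal protein transcripts are short, and short transcripts as a class differed from long ones. Of the other protein-coding genes with a mean of at least 100 TPM, 415 had coding transcripts under 1000 bases, with a median difference of −0.01 and 218 lower. Longer ones were found for 825, with a median of 0.11 and 296 lower. Without oxidative phosphorylation subunits, TOP mRNAs and the ribosomal protein genes outside the symbol rule, the 368 remaining short ones had a median of 0.01. Within the 75 members with a mean of at least 100 TPM and a coding transcript in GENCODE M21, the Pearson correlation of the difference with log2 length was −0.10 and with GC content −0.21, which describes genes of the same libraries. Over the 1240 other protein-coding genes with a mean of at least 100 TPM these correlations were 0.17 and −0.20. The part of transcript length in the members' difference was not tested.

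Markers of several cell types also differed between the pools, as values beside the ribosomal protein result. For comparison with the counts, 64.9% of all genes with a mean of at least 1 TPM were higher and 35.1% lower. The markers of valve mesenchyme were present in both pools, with a sum of 18180 and 17462 TPM over 8 genes, of which 6 were higher. Dcn, at 11409 and 9304 TPM, made up most of that sum. Those of endothelium were present too, with a sum of 607 and 623 TPM over 7 genes, of which 5 were lower. Lymphatic endothelium markers were lower for 4 of 5 genes, with a sum of 350 and 196 TPM. Red blood cell markers were lower for 5 of 5 genes, with a sum of 6801 and 687 TPM, and T cell markers for 6 of 7, with a sum of 85.3 and 54.9 TPM. Neutrophil markers had a sum of 17.5 and 103 TPM over 6 measured genes, of which 4 were higher and 2, Camp and Retnlg, were lower. S100a9 alone was at 2.34 and 48.0 TPM, and Ly6g was listed at 0 in both pools. Macrophage markers were higher for 6 of 7, with a sum of 2033 and 2410.0 TPM. After TPM were rescaled without the red blood cell markers, the medians were −0.35 for both subunits and 79 members were lower. These markers held only 0.68% of the wild-type and 0.07% of the mutant library, so this rescaling could move the members little. It left in place any ribosomal protein mRNA of blood cells. The part of any cell type, red blood cells included, in the ribosomal protein difference was not tested.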

How the data were processed

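The deposited table holds 1 TPM value per gene symbol and library, per the file headers, and the columns sum to 999964 and 999945. The submitters' processing notes name Trimmomatic, HISAT2, kallisto and the mm10 genome. The sources used here give no version, role or annotation, nor how transcripts were summed to genes. Per the labels' protocols, RNA was amplified (Ovation RNAseq, NuGEN) before Nextera XT libraries were made for an Illumina HiSeq, so reads are not independent molecules.

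Differences used a pseudocount of 1, which understates those of low genes, and counts used genes with a mean of at least 1 TPM. How noise between libraries would move the difference or its 2-fold limit was not tested. Positions, biotypes and transcripts came from GENCODE M21, in which 32227 of the 33640 symbols and all 85 members were found. Copies were aligned with BLAST 2.17.0. Python 3.11.15, numpy 2.4.6 and pandas 2.3.3 were used. Named members were, in each subunit, the 6 most abundant, the 6 lowest and the 6 highest differences at a mean of at least 10 TPM, all paralogs and the structural groups, and from each other list the 2 most abundant and the 2 largest differences. Other TOP genes that were not lower, Rack1, Rps27rt and the named copies were chosen after their values were seen. A few genes that the rule takes are not reported here, and all members count in the sums and medians. The members and lists were chosen with earlier results of these data known. Other pseudocounts, filters, scalings and sums with copies were tried, 14 settings in all, of which 4 were chosen after seeing the data.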

Additional observations from a re-analysis of the deposited data

How the results depend on the processing

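Both subunits kept a negative median and summed difference under all 14 alternatives, 4 of which were chosen after seeing the data. Centring on the median of genes with at least 10 TPM (0.11) moved the medians to −0.46 (large) and −0.45 (small) and the summed differences to −0.47 and −0.42. Quantile normalization moved the small subunit median to −0.22 and the summed differences to −0.25 and −0.19, and the large subunit median to −0.27. Under these scalings 80 and 78 of 82 members were lower, while 46.5% and 51.5% of all genes were. The count of members at least 2-fold lower, which rests on Rpl3l, became 0 with a pseudocount of 5, a mean of at least 10 or 100 TPM, or without the paralogs, since Rpl3l is then damped or left out. No member was at least 2-fold higher under any alternative. Signs changed for Rpl5 and Rpl22l1 with copies added, Rps27l on centring and Rps29 under quantile normalization. No paired analysis was possible because each genotype had 1 library. Depth is unknown, so no limit of detection can be given, and members below 10 TPM are the least secure.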

Other observations

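The copies of ribosomal protein genes differed by their level. Of the 18 copies outside the members with a mean of at least 100 TPM, 15 were lower in the mutant pool, with a median difference of −0.26. Of the 32 copies with a mean of 10 to 100 TPM, 25 were higher, with a median of 0.49, and 9 were at least 2-fold higher. The 189 copies with a mean of 1 to 10 TPM had a median of 0.29, with 113 higher. Beside these, all genes with a mean of at least 1 TPM had a median of 0.14. Among all these genes 64.9% were higher, 35.1% lower and 4.81% at least 2-fold higher. The 189 copies thus held no larger share of higher genes than all genes did when any size of difference is counted. Large differences in both directions were more frequent among them. At least 2-fold higher were 38 of the 189 and at least 2-fold lower 16, where 4.81% and 1.72% of all genes were. All genes are not matched to these copies for level, and values of 1 to 10 TPM may rest on few reads. Gm10163, a copy of Rpl21, was at 28.9 and 74.7 TPM, and Gm15696, a copy of Rps18, at 4.32 and 18.2 TPM. Among the abundant copies that were higher, Gm9794, a copy of Rpl23, was at 96.6 and 127 TPM, and Rpl37rt, which resembles Rpl37, at 97.0 and 133 TPM. Such levels rest on how reads were divided between near-identical sequences, which was not tested.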
